A study of Mus musculus with 4 samples.

Results

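Protein kinase A (PKA) and the PDE3 phosphodiesterases stand at opposite sides of the same signal. PKA is held inactive by a pair of regulatory subunits that cover a pair of catalytic subunits, and cyclic AMP frees the catalytic subunits by binding the regulatory ones, whereas PDE3 enzymes break cyclic AMP down. In male germ cells the pathway is known for its part in sperm motility and capacitation, and in oocytes PDE3A is known for lowering cyclic AMP before meiosis resumes. The 8 genes described here encode the regulatory subunits (Prkar1a, Prkar1b, Prkar2a and Prkar2b), the catalytic subunits (Prkaca and Prkacb) and the PDE3 enzymes (Pde3a and Pde3b). They are 8 of 21887 protein-coding genes outside the mitochondrial genome and were matched by symbol in the RefSeq genes of assembly GRCm38.p6, which has the chromosomes of mm10. The family was chosen by the width of 2 peaks in these lists, since Prkar1a had a wide interval in the control list alone and Pde3b a wide one in the knockout list alone, so these features describe the choice and are not findings.

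The data are ATAC-seq peak lists from pachytene spermatocytes of mouse testis, cells at the stage of meiosis when homologous chromosomes are fully paired. In ATAC-seq the Tn5 transposase cuts open chromatin, and a peak marks a stretch with many cuts. The groups are Znhit1_KO, a knockout of the gene for ZNHIT1, which belongs to the SRCAP complex that deposits the histone variant H2A.Z, and CTRL, the controls. All 4 libraries, 2 per genotype, carry the tag P35, and the sources used here do not give the age, the strain, the allele or any Cre driver. The question was how ZNHIT1 affects accessible chromatin at this stage, and 1 peak list per genotype was analysed.

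Each list gives positions and nothing else, so presence, width and the number of times an interval was listed are the measures available. With 1 list per genotype there is no replicate check, and no test between genotypes was possible. The lists held 21004 unique intervals in the knockout and 15376 in the control, with median widths of 352 and 427 bp. The knockout list therefore has 1.37 times as many intervals over the whole genome, and although the labels state above 30000000 reads per sample, the reads that entered each list are unknown, so a feature missing from a list is not shown to be closed. Markers of pachytene spermatocytes mostly had an interval within 1 kb of a gene end, with 5 of 8 in both lists (Sycp1, Sycp3, Hormad1, Mybl1 and Piwil1), H1f6 in the knockout list alone, and Spata16 and Ovol2 in neither. None of 5 Sertoli, 5 Leydig and 5 round spermatid markers had one in either list. Of 5 spermatogonial markers, Dmrt1 had such an interval in the control list alone and Uchl1 in the knockout list alone. Of 5 markers of other somatic cells, Acta2 had one in the knockout list alone. Of all protein-coding genes, 28.6% had an interval within 1 kb of a gene end in both lists and 57.0% in neither. In the gene or within 10 kb, Gata4, Amh and the spermatogonial markers Zbtb16 and Gfra1 had intervals in both lists. Sox9, Tnp2, Prm2, Cyp11a1, Nr5a1 and the somatic markers Pecam1 and Ptprc had one there in a single list. The somatic marker Myh11 had 3 there, all in the knockout list. The purity of the cells is not read from these counts.

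The genes together held 19 intervals of the knockout list and 8 of the control list inside the gene or within 10 kb of either end. Knockout intervals outnumbered control intervals 2.375 to 1, beside 1.37 to 1 over the whole lists. At 5 of the 8 genes the knockout count was the higher (Prkar1b, Prkar2b, Prkaca, Prkacb and Pde3b), and at 3 the counts were equal (Prkar1a, Prkar2a and Pde3a). Without Prkar1a and Pde3b, which were chosen on these lists, the knockout count was the higher at 4 of 6. Among all protein-coding genes 28.6% had more knockout than control intervals in the same window. In number of intervals, Prkar1b held 5 in the knockout list and Prkar2b 4, and no member held more than 2 in the control list. Among intervals with 2 or more listings the counts were 5 and 4, so the surplus in the knockout list lay among intervals listed once. The same held over the whole lists, with 6091 knockout and 6016 control intervals listed 2 or more times. Listed once were 14 of the 19 and 4 of the 8 intervals, beside 71.0% and 60.9% of the whole lists. This is therefore not read as a result about these genes.

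**Figure D1:**
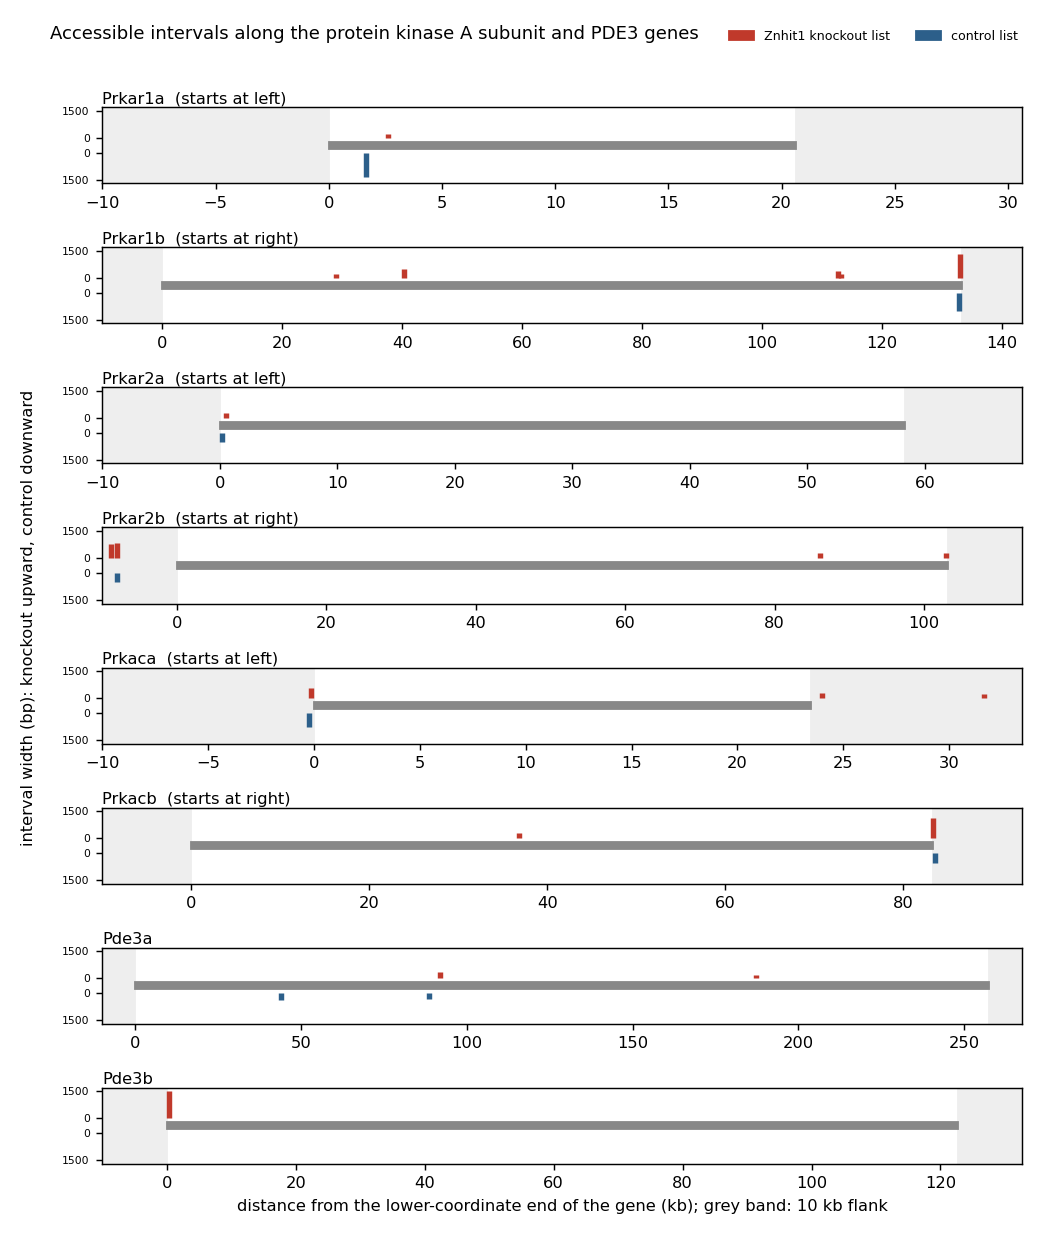
Each panel is 1 gene, drawn as a grey bar from its lower-coordinate end, with position in kb on the horizontal axis and grey bands for the 10 kb flanks. Upward red bars are knockout intervals and downward blue bars control intervals, with bar length showing interval width in bp and bar thickness not to scale; the tallest bars stand at gene ends, and Pde3b has no blue bar.

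Overlap between the genotypes was as follows. Of the 19 knockout intervals, 5 (26.3%, Wilson 95% interval 11.8 to 48.8, counting error only) overlapped a control interval by at least 1 bp, against 32.4% of the whole knockout list. Of the 8 control intervals, 5 (62.5%, 30.6 to 86.3) overlapped a knockout interval, against 44.4% of the whole control list. Both whole-list values lie within the members' intervals, so nothing about the members is read from these shares. The 5 overlapping pairs lay at Prkar1b, Prkar2a, Prkaca, Prkacb and the flank of Prkar2b, 1 pair at each, and 4 of the 5 were at a gene end of a member.

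At gene ends, defined as within 1 kb of either annotated end, 4 of the 8 genes had an interval in both lists, Prkar1b, Prkar2a, Prkaca and Prkacb. Among all protein-coding genes 28.6% did. Prkar2b and Pde3b had one in the knockout list alone (9.81% of all genes), Prkar1a in the control list alone (4.66%), and Pde3a in neither (57.0%). The calls at Prkar1a and Pde3b are those that chose the family, and nothing is read from them. With the wider window of the gene and 10 kb, 7 members had an interval in both lists (46.1% of all genes), and Pde3b was again in the knockout list alone (13.9%). The share in both lists was higher among long genes. It was 60.4% of the 2189 longest genes, with Prkar1b, Pde3a and Pde3b. It was 60.7% of the 2189 next in length, with Prkar2a, Prkar2b and Prkacb, and 50.6% of the 2188 with Prkar1a and Prkaca. In that window the control list alone had 5.85% of all genes, 34.2% had no interval, and 0 members fell in those classes. Of all genes, 60.0% had a knockout interval there and 52.0% a control interval.

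Gene-end intervals spanned a broad range of widths. They measured 277 to 1517 bp in the knockout list (7 intervals) and 501 to 1328 bp in the control list (5 intervals), and the largest of each are the Pde3b and Prkar1a intervals whose widths chose the family. Without those 2 genes the gene-end medians were 442 bp over 6 knockout intervals and 644 bp over 4 control intervals, and 3 of the 6 (Prkar2a 277 bp, Prkar2b 287 bp and Prkaca 302 bp) were below the median of the whole knockout list. Away from gene ends, again without Prkar1a and Pde3b, the medians were 304 bp over 11 knockout intervals and 368 bp over 3 control intervals (353 to 529 bp). The widest of those away from a member's own ends, 749 and 824 bp, lie at the neighbouring gene Hbp1.

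**Figure D2:**
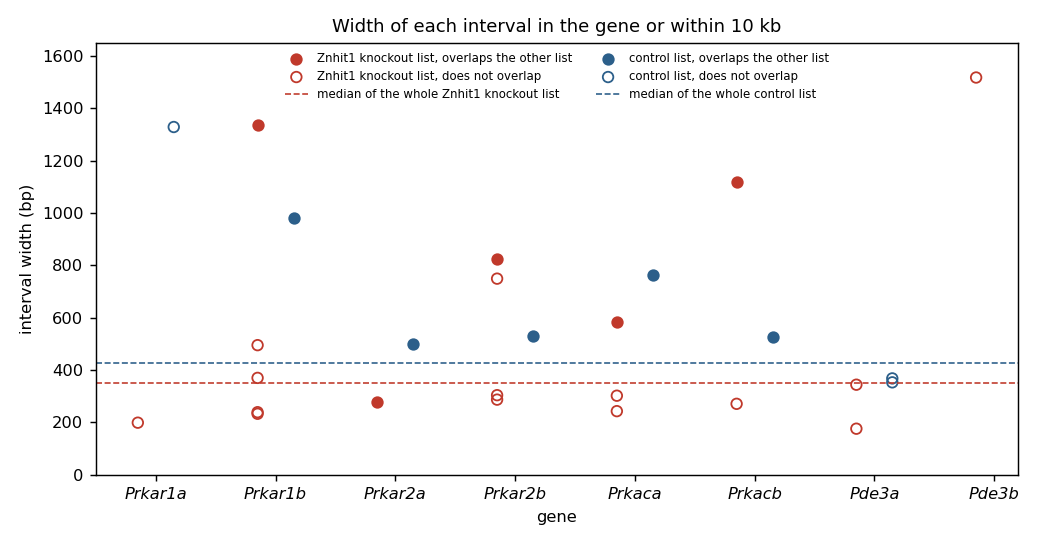
Width in bp of every interval in each gene or within 10 kb, with red for the knockout list and blue for the control list, and filled points for intervals that overlap the other list. Dashed lines are the medians of the whole lists (352 and 427 bp). Of the 19 red points 5 are filled (26.3%, against 32.4% of the whole knockout list) and 14 are open. The open points above 1000 bp belong to Prkar1a and Pde3b, whose widths chose the family.

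The 250 bases before a RefSeq transcript start are shown for 5 genes, because intervals of these genes were set against those starts. The sequences come from a RefSeq promoter table (GRCm38.p6), which matched 6 of the 8 members and not Pde3a or Pde3b, and read 5′ to 3′ on the gene's strand. Prkar1b is left out because its window overlaps the start of Dnaaf5. For genes with several starts the window shown is the one that intervals of the most lists overlap, and among equals the outermost. Capitals mark matches on either strand to the GC box GGGCGG, the CCAAT box CCAAT, the E-box CACGTG, the core TGACG of the cyclic AMP response element, and the A-MYB core AACNGNC. The list named with each sequence is the one whose interval overlaps that start's window. Of the 250 bases, 72 lie inside the control interval at Prkar2a, 229 inside the knockout interval at Prkar2b, and all inside both intervals at Prkaca and Prkacb. Neighbouring matches can run together, as the CCAAT box does with the E-box and with a GC box in Prkaca.
Prkar1a, control list alone, plus strand, chr11:109650292-109650541: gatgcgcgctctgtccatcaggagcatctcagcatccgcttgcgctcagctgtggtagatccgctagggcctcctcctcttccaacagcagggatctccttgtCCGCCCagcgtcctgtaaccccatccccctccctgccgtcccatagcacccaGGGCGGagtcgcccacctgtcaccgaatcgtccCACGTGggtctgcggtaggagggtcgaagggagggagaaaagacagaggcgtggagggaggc
Prkar2a, control list alone, plus strand, chr9:108691893-108692142: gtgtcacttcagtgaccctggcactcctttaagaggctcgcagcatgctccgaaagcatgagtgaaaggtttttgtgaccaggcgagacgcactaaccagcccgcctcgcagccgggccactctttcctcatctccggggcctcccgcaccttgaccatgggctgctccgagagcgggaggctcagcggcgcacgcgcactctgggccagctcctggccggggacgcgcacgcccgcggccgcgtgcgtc
Prkar2b, knockout list alone, minus strand, chr12:32061278-32061527: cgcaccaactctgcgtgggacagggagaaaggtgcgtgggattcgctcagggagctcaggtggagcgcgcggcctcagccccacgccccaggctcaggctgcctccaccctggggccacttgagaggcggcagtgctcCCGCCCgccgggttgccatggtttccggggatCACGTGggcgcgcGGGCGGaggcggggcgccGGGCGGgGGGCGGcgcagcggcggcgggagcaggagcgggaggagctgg
Prkaca, both lists, plus strand, chr8:83972728-83972977: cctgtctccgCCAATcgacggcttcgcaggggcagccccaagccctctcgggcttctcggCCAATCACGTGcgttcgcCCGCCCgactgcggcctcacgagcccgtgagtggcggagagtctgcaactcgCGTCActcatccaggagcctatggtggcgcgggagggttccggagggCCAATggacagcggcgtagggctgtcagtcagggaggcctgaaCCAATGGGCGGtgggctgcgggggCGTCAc
Prkacb, both lists, minus strand, chr3:146812947-146813196: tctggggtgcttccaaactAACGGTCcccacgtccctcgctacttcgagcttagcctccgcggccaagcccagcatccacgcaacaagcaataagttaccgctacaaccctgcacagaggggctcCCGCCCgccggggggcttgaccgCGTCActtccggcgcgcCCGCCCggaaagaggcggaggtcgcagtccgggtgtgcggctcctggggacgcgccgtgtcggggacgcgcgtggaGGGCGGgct

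Prkar1a encodes RI-alpha, the widely expressed regulatory subunit that sits mostly in the cytosol, and lies on chromosome 11 from 109649023 to 109669663 on the plus strand. Each genotype had 1 interval there, and they did not overlap. The control interval ran from 109650000 to 109651327, was 1328 bp wide and was listed 5 times, the most of any member. Of the 15376 control intervals, 227 (1.48%) were at least as wide. That width was used to choose the family, so its rank is not a finding. The knockout interval ran from 109651529 to 109651727, was 199 bp wide and listed once, and 91.5% of the knockout list was at least as wide. The 2 intervals were 201 bp apart, so Prkar1a was not without an accessible interval in the knockout: it had a narrow one downstream of the site of the wide control one.

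RefSeq gives Prkar1a 6 starts spread over 2319 bp, and the control interval lay over the inner ones. It began 977 bp inside the annotated gene, held 3 of the 6 starts and ended 15 bp before the last of them, at 109651342. The call of a gene-end interval rested on 24 bp of that interval that fall within 1 kb of the outermost start. With a gene-end window of 500 bp Prkar1a had no gene-end interval in either list, with 3 kb it had one in both, and with gaps of up to 500 bp counted as overlap its control interval was shared. All 250 bases of the Prkar1a sequence above lie inside the control interval and none inside a knockout interval.

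The full cyclic AMP response element TGACGTCA, the site bound by CREB family factors that PKA activates, was found in 1 of the 19 start windows of the members, at Prkar1a. It lies at 109650900 to 109650907, with 41 bases between it and the start at 109650949, inside the control interval. The element holds the core TGACG on each strand, so it also counts as 2 core matches, and 1.92% of 21263 start windows of protein-coding genes hold it. A match describes letters and not binding. The 30 bases around it are shown with the element in capitals, because it is the full element of the pathway's own response site.
Prkar1a, plus strand, chr11:109650889-109650918: gcgaggcgcatTGACGTCAgcagccgaacg

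Prkar1b encodes RI-beta, a regulatory subunit known mainly from brain, and lies on chromosome 5 from 139017304 to 139150703 on the minus strand. It had 5 knockout intervals and 1 control interval. The wide pair lay at the start of the gene, from 139149620 to 139150955 in the knockout (1336 bp, listed 4 times) and from 139149640 to 139150620 in the control (981 bp, listed 2 times). The inner edges differed by 20 bp, while the knockout interval reached 335 bp farther out and covered the outermost RefSeq start, from which the control interval ended 83 bp short. That pair also lies at the start of Dnaaf5, a dynein assembly factor gene whose annotated span overlaps that of Prkar1b, so it cannot be assigned to either gene.

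The other 4 knockout intervals of Prkar1b lay inside the gene and overlapped no control interval. Intervals of 370 bp (139129833 to 139130202) and 233 bp (139130325 to 139130557) lay about the 3 inner RefSeq starts, which are 20226 to 20951 bp from the outermost one. All 5 start windows of Prkar1b were overlapped in the knockout list and 1 in the control list. The remaining intervals, of 239 bp (139046178 to 139046416) and 495 bp (139057344 to 139057838), were not near an annotated start of the gene. Each of the 4 was listed once, and 233 and 239 bp are below the median width of the knockout list.

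Prkar2a encodes RII-alpha, a regulatory subunit tethered by A-kinase anchoring proteins and known from the sperm flagellum, and lies on chromosome 9 from 108692143 to 108750444 on the plus strand. It had 1 interval in each list. The control interval, from 108692071 to 108692571 (501 bp, listed 2 times), covered the single RefSeq start. The knockout interval, from 108692564 to 108692840 (277 bp, listed once), began 421 bp inside the gene. They overlapped by 8 bp, which was 2.89% of the knockout interval, and 5 of 6296 sites where 1 knockout interval met 1 control interval shared 8 bp or less (0.0794%). Prkar2a was counted as having an interval in both lists, but with an overlap of 50% of both intervals required its pair was not shared, and with intervals at least 300 bp wide it was in the control list alone.

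Prkar2b encodes RII-beta, an anchored regulatory subunit known mainly from brain and fat, and lies on chromosome 12 from 31958450 to 32061648 on the minus strand. The knockout list had 4 intervals in its window and the control list 1. Its gene-end interval was in the knockout list alone, from 32061299 to 32061585 (287 bp, listed once), between the outer annotated end and the RefSeq start at 32061277, which lay 22 bp away. A narrow interval of 304 bp (32044453 to 32044756) lay inside the gene in the knockout list. The other intervals were in the flank, within 1 kb of an annotated end of Hbp1, a transcriptional repressor gene. Whether that end is the start of Hbp1 was not looked up. These intervals measured 749 bp (31949175 to 31949923) and 824 bp (31950018 to 31950841) in the knockout and 529 bp (31950171 to 31950699) in the control. The control list thus had no interval inside Prkar2b, and with a flank of 5 kb the gene was in the knockout list alone. The next control interval beyond the window was 457.8 kb from the gene.

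**Figure D3:**
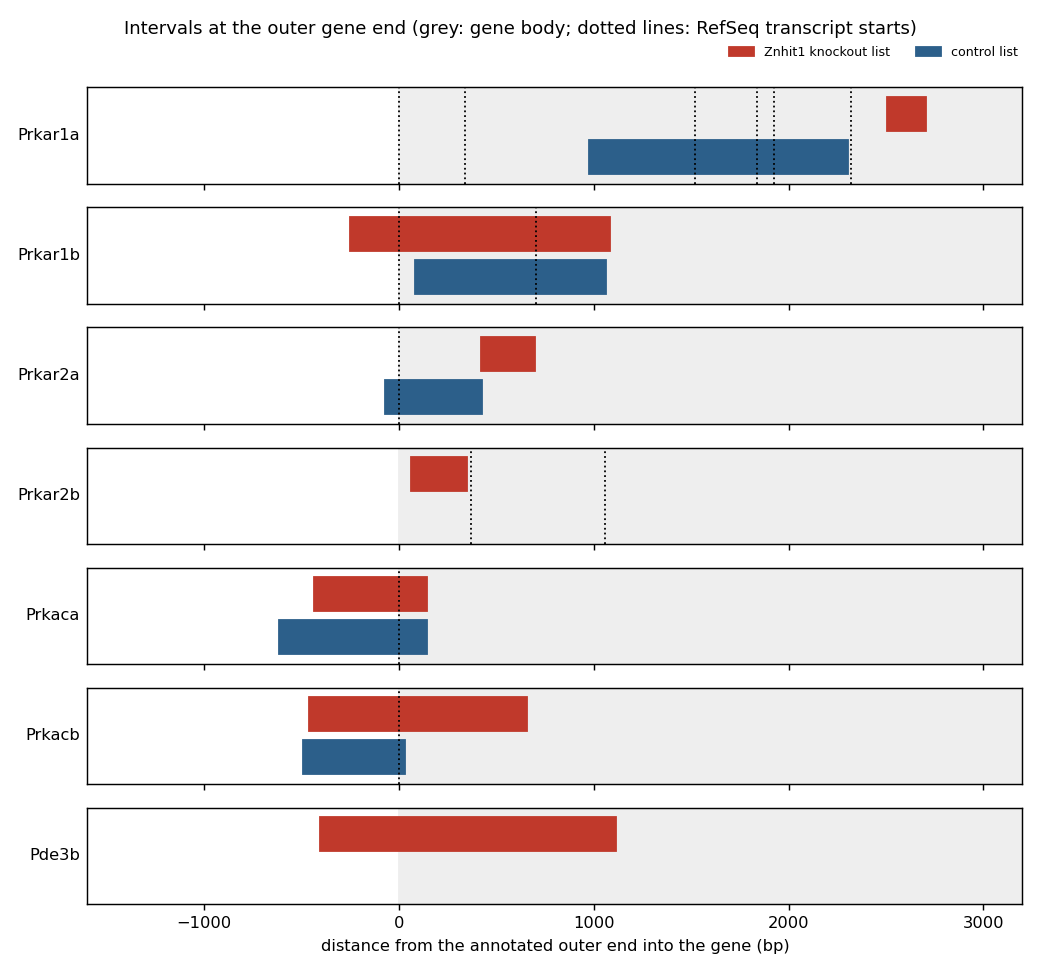
Intervals of 7 genes around the outer gene end, with distance into the gene in bp on the horizontal axis, the gene body in grey, RefSeq starts as dotted lines (none were available for Pde3b), and boxes drawn to scale in red for the knockout list and blue for the control list. The boxes of Prkar1b, Prkaca and Prkacb share 1 edge closely, those of Prkar2a barely meet, and those of Prkar1a do not meet.

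Prkaca encodes the main catalytic subunit, C-alpha, which also has a sperm-specific variant made from an alternative first exon, and lies on chromosome 8 from 83972978 to 83996444 on the plus strand. An interval covered the outer RefSeq start in both lists. It ran from 83972540 to 83973121 in the knockout (582 bp) and from 83972362 to 83973122 in the control (761 bp), each listed once. The edges inside the gene differed by 1 bp and the outer edges by 178 bp, so the knockout interval lay wholly within the control interval. Its other RefSeq start, 3905 bp into the gene, had no interval in either list, and the table does not say which start gives the sperm-specific variant.

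In the knockout list Prkaca had 2 more intervals, both past its far end. One of 302 bp (83996838 to 83997139) began 394 bp beyond the gene and lay within 1 kb of an end of Samd1, and one of 243 bp (84004509 to 84004751) lay inside 1700067K01Rik. Neither overlapped a control interval, each was listed once, and each was narrower than the median of the knockout list.

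Prkacb encodes the other catalytic subunit, C-beta, and lies on chromosome 3 from 146729579 to 146812946 on the minus strand. Its start was covered in both lists, from 146812289 to 146813407 in the knockout (1119 bp, listed 4 times) and from 146812913 to 146813439 in the control (527 bp, listed 2 times). Outside the gene the edges differed by 32 bp, and inside the gene the knockout interval reached 624 bp farther. The knockout interval was 2.12 times as wide, and 7.66% of the 6296 sites had a width ratio as far from equal in either direction. Its 2 inner RefSeq starts, 31530 and 42708 bp from the outer one, had no interval. A further knockout interval of 271 bp (146766218 to 146766488) lay inside the gene and overlapped no control interval.

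Widths at the 5 overlapping pairs did not move in 1 direction. Knockout width over control width, as a log2 ratio, was 0.45 at Prkar1b, 0.64 at the Prkar2b flank and 1.09 at Prkacb, and -0.39 at Prkaca and -0.85 at Prkar2a. Over all 6296 sites where 1 interval met 1, the median was 0.03 with quartiles of -0.29 and 0.38, and 52.6% were wider in the knockout. The width of an interval depends on depth and on how the caller joined neighbouring summits, and no replicate spread is available for it.

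Pde3a encodes the PDE3 enzyme best known from oocytes, heart and platelets, and lies on chromosome 6 from 141249269 to 141506862. It is the longest of the 8 genes (257.6 kb) and had no interval within 1 kb of either end in either list. Inside the gene the knockout list had intervals of 344 bp (141340918 to 141341261, listed 2 times) and 176 bp (141436348 to 141436523, listed once). The control list had intervals of 368 bp (141292998 to 141293365) and 353 bp (141337772 to 141338124), each listed once. None overlapped an interval of the other list. The knockout interval of 344 bp lies within the annotated span of the non-coding RNA gene Gm10400 as well as in Pde3a. Of the 2189 longest protein-coding genes, 57.4% likewise had no gene-end interval in either list.

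Pde3b encodes the PDE3 enzyme through which insulin lowers cyclic AMP in fat and liver, and lies on chromosome 7 from 114415222 to 114537938. Its single interval was in the knockout list, from 114414818 to 114416334 (1517 bp, listed 3 times), and 83 of 21004 knockout intervals (0.395%) were at least as wide. It began 404 bp outside the gene and extended 1113 bp into it. The annotated end of the non-coding RNA gene 4933406I18Rik lies 60 bp from that of Pde3b, and 344 bp of the interval fall within it, so the site belongs to both genes by position. The control list had none in the gene or within 10 kb, and its nearest interval was 119.6 kb away. Among the same 2189 longest genes, 66.1% had a control interval within 10 kb and 16.2% were in the knockout list alone.

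In the order of genes by width of the widest gene-end interval that overlapped none of the other list, Pde3b stood first of 2612 genes in the knockout list. It was followed by Paip1 (1459 bp) and Npepl1 (1429 bp). Prkar1a had rank 4 of 1386 genes in the control list, below Ncoa3 and LOC115489489 (1366 bp each) and above Wdr5 (1212 bp) and Chst13 (1122 bp). These genes are neighbours in that order only, and the order describes the choice of the family. Ncoa3 had gene-end intervals in both lists.

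Accessibility was also counted by RefSeq start in place of gene end. Each start window holds 250 bases before a start and 50 after it. Of the 19 windows of the 6 matched members, 8 were overlapped by a knockout interval (34.6% of 21263 windows of all protein-coding genes) and 8 by a control interval (29.9%). The windows overlapped in both lists were 3 (26.4%), 1 each at Prkar1b, Prkaca and Prkacb. Of the rest, 5 were in the knockout list alone (8.14%), 4 of them at Prkar1b and 1 at Prkar2b, and 5 in the control list alone (3.46%), 4 of them at Prkar1a and 1 at Prkar2a. Without Prkar1a, whose wide control interval was used in the choice and covers 4 windows, 8 of 13 windows were overlapped in the knockout list and 4 in the control list. Windows of 1 gene can overlap each other and share an interval, so the 19 are not independent.

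Base composition was compared between start windows with and without an interval. Over the 250 bases before each start, the 13 overlapped member windows had a median G and C content of 66.8% and 24 CpG, and the 6 others had 45.2% and 3.5. Over all protein-coding genes the medians were 62.0% and 18 in 8083 overlapped windows and 50.8% and 4 in 13180 others. Single windows departed from these medians in both directions. The Prkar2b window at 32060540 to 32060839 had 69.6% and 26 CpG and no interval, and the Prkar1b windows of the starts at 139130477 and 139130386 had 3 CpG each and a knockout interval. For each motif, sought in the same 250 bases, the share of the 19 member windows is given beside that of all 21263. A GC box was in 9 (47.4% against 42.6%), a CCAAT box in 5 (26.3% against 35.4%), the core TGACG in 6 (31.6% against 20.2%), the A-MYB core in 6 (31.6% against 27.2%) and an E-box in 4 (21.1% against 6.63%). The printed Prkaca sequence alone holds 4 CCAAT boxes, 2 GC boxes, 2 cores and 1 E-box, and the printed Prkar2a sequence holds none of these motifs.

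Other genes of the pathway were counted by gene-end interval, list by list, beside the 28.6% of all protein-coding genes with one in both lists and the 57.0% with one in neither. None of 10 adenylyl cyclase genes (Adcy1 to Adcy10), which make cyclic AMP, had a gene-end interval in either list. Of 19 other phosphodiesterase genes 1 had one, Pde7a, in both lists (knockout width 730 bp, control width 947 bp). Of 10 genes for cyclic AMP responsive transcription factors and their coactivators, 7 had one in both lists. Among them were Ep300, a histone acetyltransferase gene (1596 and 1372 bp), Creb1 (1055 and 1074 bp) and Crem, whose activator form drives spermatid genes (1298 and 868 bp). Crtc3, a coactivator of CREB, had one in the knockout list alone (502 bp), but 2 intervals of each list lay in the gene or within 10 kb.

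Proteins that place PKA in the cell are the A-kinase anchoring proteins, and some sperm flagellar proteins carry a similar docking domain. Of 20 such genes, 9 had a gene-end interval in both lists, 1 in the knockout list alone, Akap10 (318 bp), 1 in the control list, Akap5 (486 bp), and 9 had none. Those in both lists included Akap8 and Akap8l, neighbours that share an interval (1316 and 754 bp), and the flagellar gene Spa17 (455 and 867 bp, shared with Siae). In the gene or within 10 kb, Akap10 had 2 knockout intervals and 1 control interval, and Akap5 had 0 and 1. Of 4 genes for PKA inhibitor peptides and the related kinase Prkx, 1 had an interval in both lists, Pkig (402 and 351 bp).

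Of 10 genes for phosphatases and substrates, 7 had a gene-end interval in both lists, among them Gsk3a (922 and 1086 bp), Ppp3cb (969 and 852 bp) and Ppp1cb (816 and 643 bp). Ppp3cc, the calcineurin subunit gene known from testis, had one in the knockout list alone (436 bp). In the gene or within 10 kb Ppp3cc had 2 knockout intervals and 1 control interval. At Ppp1r1b the intervals of the 2 lists did not overlap each other. Of 10 genes for other cyclic AMP receptors and G proteins, 1 was in both lists, Gnai3 (483 and 851 bp), 2 were in the knockout list alone, Gnai2 (479 bp) and Bves (214 bp), and 1 in the control list alone, Gnal (471 bp). The other 6 had none, among them Rapgef3 and Rapgef4, which encode cyclic AMP receptors of the EPAC family. In the gene or within 10 kb, Gnai2 had 4 knockout and 3 control intervals, Gnal 1 and 4, and Bves 1 and 0.

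Over the 83 genes of these lists, 26 were in both peak lists (31.3%), 5 in the knockout list alone (6.02%), 2 in that of the control alone (2.41%) and 50 in neither (60.2%). The shares of all protein-coding genes were 28.6%, 9.81%, 4.66% and 57.0%. Among intervals with 2 or more listings, both lists shared 14 of these genes. The knockout list alone had 4 and the control list alone 7, so the order of the genotype-only counts turned. That limit left 6091 of 21004 knockout and 6016 of 15376 control intervals over the whole lists. The share of all protein-coding genes under it was not counted, so the turn is not read as a result about these genes.

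**Figure D4:**
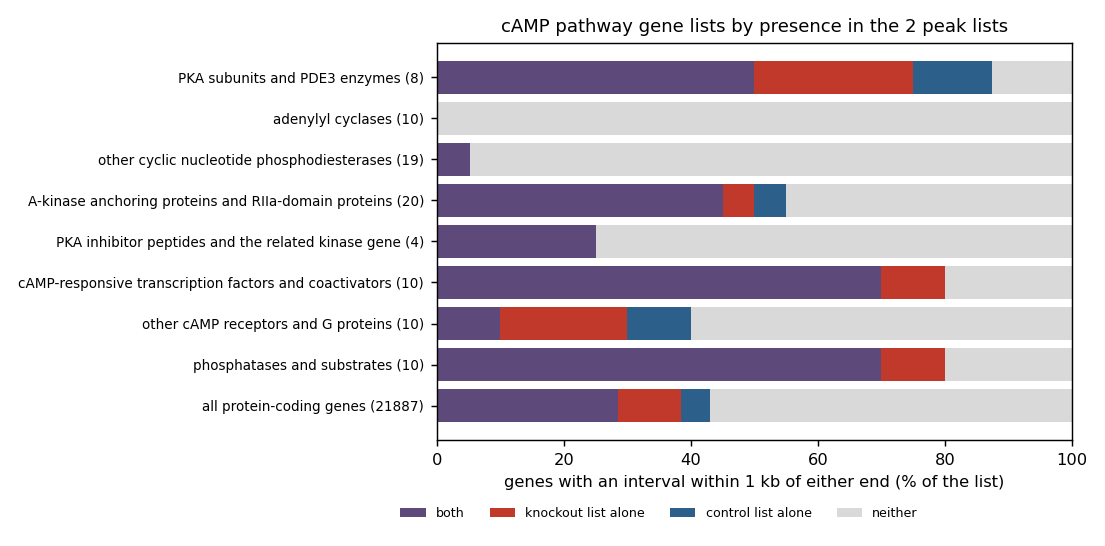
Bars show the percentage of each gene list with an interval within 1 kb of either gene end in both peak lists, in 1 alone or in neither, with the number of genes in parentheses. The transcription factor and phosphatase lists have 7 of 10 genes in both peak lists, the adenylyl cyclases have 10 of 10 in neither, and the bottom bar gives all protein-coding genes.

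The 10 kb limit of the gene window set how many intervals were counted. With flanks of 5 kb there were 16 knockout and 7 control intervals, and with 50 kb there were 36 and 20. The interval farthest out but inside it was the 749 bp one of the knockout list at Prkar2b, 8527 bp from the gene, and the nearest one outside it was 14.4 kb from Prkar2b in the knockout list (247 bp wide, in Hbp1). In the control list the nearest outside was 17.0 kb from Prkaca.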

How the data were processed

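Values come from ATAC-seq of pachytene spermatocytes, with groups taken from the titles and genotype labels. MACS2 2.2.4, Picard 2.20.7, Bowtie2 2.3.4.3, cutadapt 2.5 and mm10 are named in the submitters' processing notes. The sources used here do not give their roles, the peak threshold, any Tn5 shift or whether replicates were pooled. Of 4 libraries the lists recorded for replicate 1 of each genotype were used, and the labels state above 30000000 reads per sample, without the reads that entered each list. The authors deposited 3 columns (chromosome, start, end). Repeated lines were counted once and the repeats kept as times listed.

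Comparisons used scipy 1.17.1, pandas 2.3.3, numpy 2.4.6 and Python 3.11.15, and bedtools 2.31.1 gave the same 6807 overlaps. The scripts were tested on simulated intervals. Figures used matplotlib 3.10.9. Positions are 1-based. An overlap is at least 1 bp. The shares of the members' intervals that overlap the other list carry Wilson 95% intervals, and the other shares carry none.

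The members and gene lists were chosen with earlier results of these data known. The naming rule took all 8 members, their gene-end and widest intervals, the genes next in width to Prkar1a and Pde3b, and per pathway list up to 4 genes in 1 peak list alone and 3 in both. Comparison by RefSeq start windows (17492 coding genes matched, orientation checked on 1627 overlapping pairs) was added after the lists were seen.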

Additional observations from a re-analysis of the deposited data

How the results depend on the processing

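Of 112 alternative values, 84 were kept and 28 were not. A count was kept within 1.5 times the reported count, and a share within the reported share's 95% interval. The 1-list calls at Prkar1a and Pde3b, which chose the family, were kept only if unchanged. The share intervals are wide, so a control overlap share of 37.5% against the reported 62.5% was also kept. With intervals listed at least 2 times, 5 knockout and 4 control intervals lay near the members. Members with an interval in the gene or 10 kb then numbered 2 in both lists, 3 in that of the knockout, 2 in that of the control and 1 in none, and at gene ends 2, 1, 2 and 3. Both lists shared 14 pathway genes, and 7 had an interval in the control list alone. With intervals at least 300 bp wide, 11 knockout intervals remained, 2 members were in the control list alone in the wide window, and at gene ends 1 was in the knockout list alone, 2 were in that of the control and 2 in none. With equal numbers of the widest intervals 1 member was in the control list alone in the wide window. With 50 kb flanks there were 36 knockout and 20 control intervals, and with 5 kb flanks 2 members were in the knockout list alone. With gene-end windows of 500 bp, 0 members were in the control list alone and 2 had none, and with 3 kb 0 members and 6 pathway genes were in the control list alone. Both of these windows, and a gap of 500 bp, took Prkar1a out of the control-alone class (1 for yes, 0 for no: 0). Merging intervals within 200 bp moved no count or share so far. No paired analysis was possible because 1 peak list per genotype was analysed and no test was run. The number of reads that entered each list is unknown, which limits every statement on a missing interval.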
